A study of Mus musculus with 16 samples.

Results

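Hif3a, Sult1a1, Plin4, Sgk1 and Tsc22d3 are 5 genes that glucocorticoid hormones are known to induce in brain or other tissues. They were chosen, with earlier results of these data known, from the glucocorticoid-responsive genes in the deposited tables, and are not all of them. Hif3a, Sult1a1 and Plin4 are 3 of the 263 genes listed for ipsilesional primary motor cortex. Hif3a, Sgk1 and Tsc22d3 are 3 of the 417 listed for contralesional primary motor cortex. The tables hold 661 distinct genes, 19 of them in both, and Hif3a is the member in both. Messenger RNA had been sequenced from motor cortex on the lesioned side (ipsilesional) and on the opposite side (contralesional) of 8 C57Bl6 mice, which makes 16 libraries. All 8 mice had a stroke, so no group is free of a lesion. Animals 6, 23 and 28 formed the spontaneously recovered group and animals 17, 19, 20, 21 and 29 the non-recovered group, by their performance on a horizontal rotating beam that a mouse has to cross. The labels name separate animals, so n counts animals, 3 recovered and 5 non-recovered in each hemisphere.

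Corticosterone, the main glucocorticoid of mice, is released by the adrenal gland in a daily rhythm and under stress. It enters cells and binds the glucocorticoid receptor, which moves to the nucleus and binds DNA at glucocorticoid response elements, inverted repeats of a short arm that are separated by a spacer. Sgk1, a kinase that acts on ion channels and transporters, and Tsc22d3, the leucine zipper protein GILZ that restrains inflammatory transcription factors, are textbook targets of the receptor. Hif3a encodes a hypoxia-inducible factor subunit with forms that restrain other hypoxia-inducible factors. Plin4 encodes a perilipin of the lipid droplet surface, and Sult1a1 a sulfotransferase that conjugates phenols and drugs.

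All 6 member values were lower in recovered than in non-recovered cortex, but none passed the test across its table. The fitted differences lay between -0.72 and -0.17 on the log2 scale, the scale of the deposited log2 CPM (counts per 1000000 reads). The recovered level was thus 60.7% of the non-recovered one for ipsilesional Plin4, 66.5% for ipsilesional Hif3a, 72.2% for contralesional Hif3a, 79.1% for Sult1a1, 84.1% for Sgk1 and 88.8% for Tsc22d3. With limma and Benjamini-Hochberg adjustment over all genes of a table, 0 of 3 ipsilesional members had an adjusted p under 0.05 where 1.14% of the listed genes were called lower, and 0 of 3 contralesional members where 6.00% were. Limma with voom weights on the recovered reads called 0 of the 263 and 0 of the 417 listed genes, members included, so it says nothing particular about the members. At an unadjusted limma p under 0.05, 2 of 3 ipsilesional members were lower (Hif3a and Sult1a1) beside 37.3% of all listed genes. On the contralesional side 2 of 3 were (Sgk1 and Tsc22d3), beside 47.7%. The median difference was -0.59 over the ipsilesional members and -0.25 over the contralesional ones. Over all listed genes, which go both ways, it was -0.13 and -0.19, and the median size without sign was 0.26 in either table. As every member was lower, the signed medians cannot show whether the members differ from other lower genes.

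The tables limit how these values can be read. Each holds selected genes, and the rule of selection is not given in the sources used here. The fitted differences nearest to 0 were -0.13 and 0.13 among ipsilesional and -0.13 and 0.12 among contralesional genes. An unadjusted p under 0.1 was found for 95.1% of ipsilesional and 98.6% of contralesional genes. Being listed thus already went with a difference between the groups, the direction of a member was shared by 50.2% of the ipsilesional and 64.7% of the contralesional genes, and adjustment over the listed genes alone can make p-values too small. The tables were normalised separately, so no level is compared between hemispheres. Library totals were 19116419 to 26310885 reads on the ipsilesional and 17972791 to 27895465 on the contralesional side. For animals 6 and 23 the contralesional libraries carry one number in the title and the code of the other animal in the description. Animal numbers here follow the titles, and because both animals recovered, no group difference within a hemisphere depends on it. The ipsilesional library of animal 6 stood apart in the summed level of the 4 listed of 13 microglia and macrophage markers, at 148 CPM. The lowest recovered library was at 9.33 CPM and the 5 non-recovered ones at 9.05 to 22.0 CPM. The ipsilesional members are given below without animal 6 as well. Of these 4 markers Lyve1 had a lower and Itgam, C3 and Gpnmb a higher mean in recovered libraries, with adjusted limma p from 0.0532 to 0.835. The sum does not describe Lyve1, which was at -0.88 to -0.32 log2 CPM in recovered and -0.06 to 0.89 in non-recovered libraries. In bulk tissue, fewer cells of a type and less RNA per cell cannot be told apart.

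**Figure D1:**
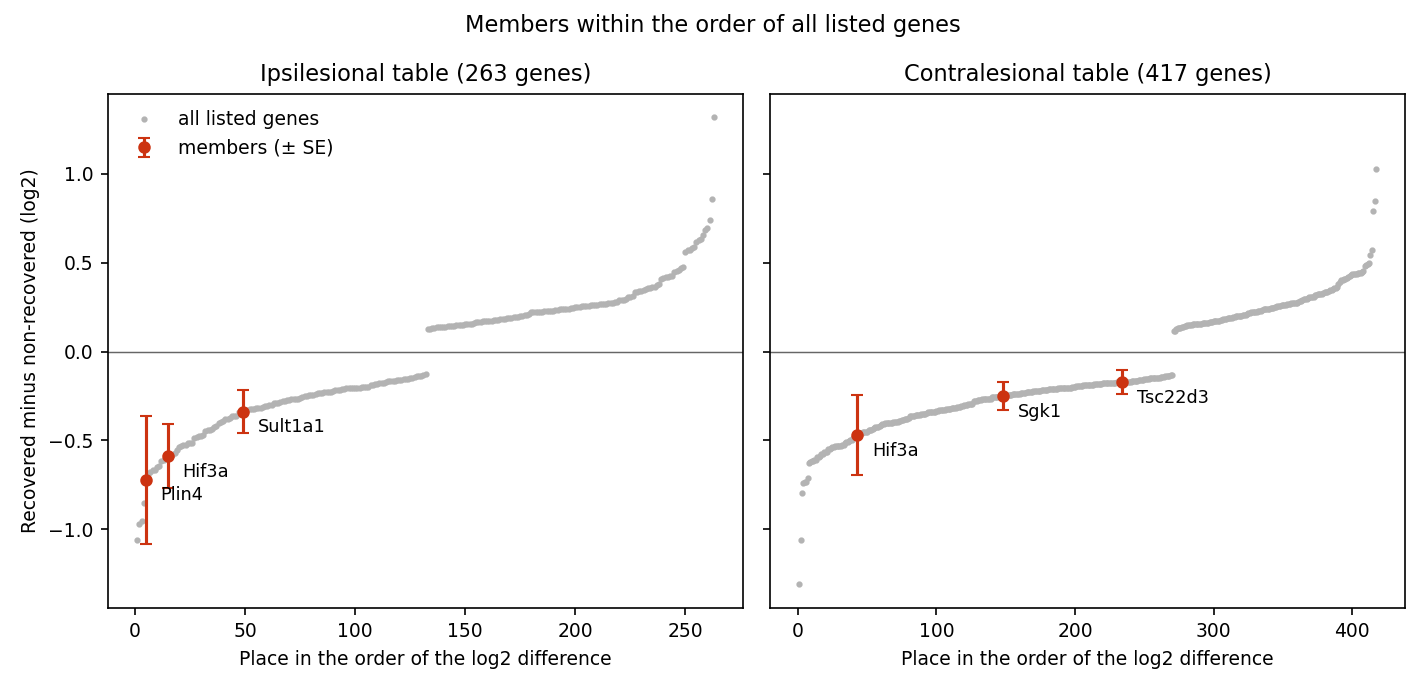
Fitted log2 difference between recovered and non-recovered libraries (vertical axis) of every listed gene, ordered from lowest to highest (horizontal axis), for the ipsilesional (left) and contralesional (right) tables. Grey points are genes and red points the members with their SE; Plin4, Hif3a and Sult1a1 held places 5, 15 and 49 of 263, and Hif3a, Sgk1 and Tsc22d3 places 43, 148 and 234 of 417. Neither table lists genes near 0.

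The DNA around the members' starts is shown because the receptor's element is a known feature of several of them. RefSeq promoter windows on GRCm38.p6, the assembly behind mm10, run from 250 bases before to 50 bases after each annotated start, and 5 of 5 members matched. The following letters were searched on both strands: the inverted repeat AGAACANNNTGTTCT, and its 6-letter arm AGAACA, which reads TGTTCT on the other strand and is contained in the repeat. The repeat was found in 3 of 32851 windows (0.00913%), and 1 of these belongs to Sgk1. The stretches below lie outside annotated exons of these genes, read 5′ to 3′ along the gene's strand, and have every match in capitals.
Sgk1, chr10:21993640-21993889, plus strand: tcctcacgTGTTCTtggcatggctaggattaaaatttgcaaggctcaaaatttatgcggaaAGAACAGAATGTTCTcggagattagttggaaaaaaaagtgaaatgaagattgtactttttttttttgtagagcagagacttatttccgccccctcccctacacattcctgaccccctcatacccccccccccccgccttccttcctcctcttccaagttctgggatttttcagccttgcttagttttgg
Sult1a1, chr7:126676433-126676668, minus strand: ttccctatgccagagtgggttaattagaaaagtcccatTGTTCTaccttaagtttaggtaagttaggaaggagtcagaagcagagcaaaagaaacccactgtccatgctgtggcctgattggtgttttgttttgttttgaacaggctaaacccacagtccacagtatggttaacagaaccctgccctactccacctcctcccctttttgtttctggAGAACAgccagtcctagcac
Tsc22d3, chrX:140600660-140600772, minus strand: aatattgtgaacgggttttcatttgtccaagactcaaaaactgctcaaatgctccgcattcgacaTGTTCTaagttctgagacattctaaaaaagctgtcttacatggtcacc

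The Sgk1 stretch holds the whole repeat, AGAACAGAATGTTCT, at chr10:21993701-21993715, which is 189 bases before the annotated start at position 21993890 and 965 bases before the one at 21994666. It lies inside the Sgk1 gene, since longer transcripts start upstream of it. No other gene had the repeat among the 198 ipsilesional and 329 contralesional listed genes with a window: it was in 1 of 424 contralesional windows (0.236%) and 0 of 256 ipsilesional ones. The arm alone is common, being in 19% of all windows, in 16.4% of the windows of ipsilesional listed genes and in 14.2% of those of contralesional ones. It was in 3 of 6 Sgk1 windows, in 1 of 3 Tsc22d3 windows, 185 bases before the start, and in the single Sult1a1 window at 212 and 34 bases before the start. The single windows of Hif3a and Plin4 held neither pattern. A match describes letters and is not a measured binding site.

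Hif3a (ENSMUSG00000004328, chr7:17031507-17062427, minus strand, mm10) was lower in ipsilesional cortex of the recovered animals. Its level was 1.48 log2 CPM in animal 6, 1.37 in animal 23 and 1.81 in animal 28, all recovered. In the non-recovered animals it was 1.68 in animal 17, 2.18 in 19, 2.03 in 20, 2.43 in 21 and 2.38 in 29. The groups overlapped by 1 animal: non-recovered animal 17 was below recovered animal 28, and the other 4 non-recovered animals were above all recovered ones. Means were 1.55 ± 0.23 (SD, n = 3) and 2.14 ± 0.30 (SD, n = 5). The difference of -0.59 ± 0.18 (SE; 95% interval -1.01 to -0.17) had a limma p of 0.0117 and an adjusted p of 0.0600. The 2-sided exact permutation test over 56 assignments of the groups, which cannot go below 0.0179, gave p = 0.0536. Between 60 and 133 reads stood behind each value. Counting reads alone would give an SD of 0.14 log2 units among non-recovered libraries, so their observed SD of 0.30 exceeded counting error.

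Sult1a1 (ENSMUSG00000030711, chr7:126672865-126676432, minus strand) was the ipsilesional member with the smallest difference. Recovered animals 6, 23 and 28 had 2.56, 2.20 and 2.49 log2 CPM. Non-recovered animals 17, 19, 20, 21 and 29 had 2.93, 2.48, 2.85, 2.71 and 2.80. Here non-recovered animal 19 was the low one, just below recovered animals 6 and 28, and animal 17, low for Hif3a, was the highest of all 8. The difference was -0.34 ± 0.12 (SE; 95% interval -0.62 to -0.06), from means of 2.41 ± 0.19 (SD, n = 3) and 2.75 ± 0.17 (SD, n = 5), with a limma p of 0.0234, an adjusted p of 0.0601 and an exact permutation p of 0.0714. It moved to -0.23 without animal 23, the lowest library, and the limma p then was 0.103. Of the 1507 exonic bases of Sult1a1, 61 overlap exons of Sgf29 on the opposite strand, and reads of the genes cannot be told apart there if strand was not used in counting.

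Plin4 (ENSMUSG00000002831, chr17:56100591-56109803, minus strand) had the largest difference of the 6 and the widest spread among non-recovered libraries. It was at 1.24, 0.54 and 1.19 log2 CPM in recovered animals 6, 23 and 28, from 33 to 54 reads. In non-recovered animals 17, 19, 20, 21 and 29 it was at 0.65, 1.73, 1.81, 2.06 and 2.31. Animal 17 again lay among the recovered animals, and the other 4 non-recovered animals were above all of them. The means of 0.99 ± 0.39 (SD, n = 3) and 1.71 ± 0.64 (SD, n = 5) differed by -0.72 ± 0.36 (SE; 95% interval -1.55 to 0.11), with a limma p of 0.0795, an adjusted p of 0.0864 and an exact permutation p of 0.125. The SD among non-recovered libraries was 0.64, against 0.17 from counting reads alone. Without animal 17 the difference was -0.99 with a limma p of 0.00215 (adjusted 0.0565), and without animal 23 it was -0.50 with a limma p of 0.257.

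Across the ipsilesional members, recovered animal 23 was the lowest of the 8 libraries for all 3 genes. Without animal 6, the library with the high sum of microglia and macrophage markers, the differences were -0.55 for Hif3a, -0.41 for Sult1a1 and -0.84 for Plin4. The groups of 0 of 3 members were free of overlap, where 21.3% of all listed genes were lower with no overlap.

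**Figure D2:**
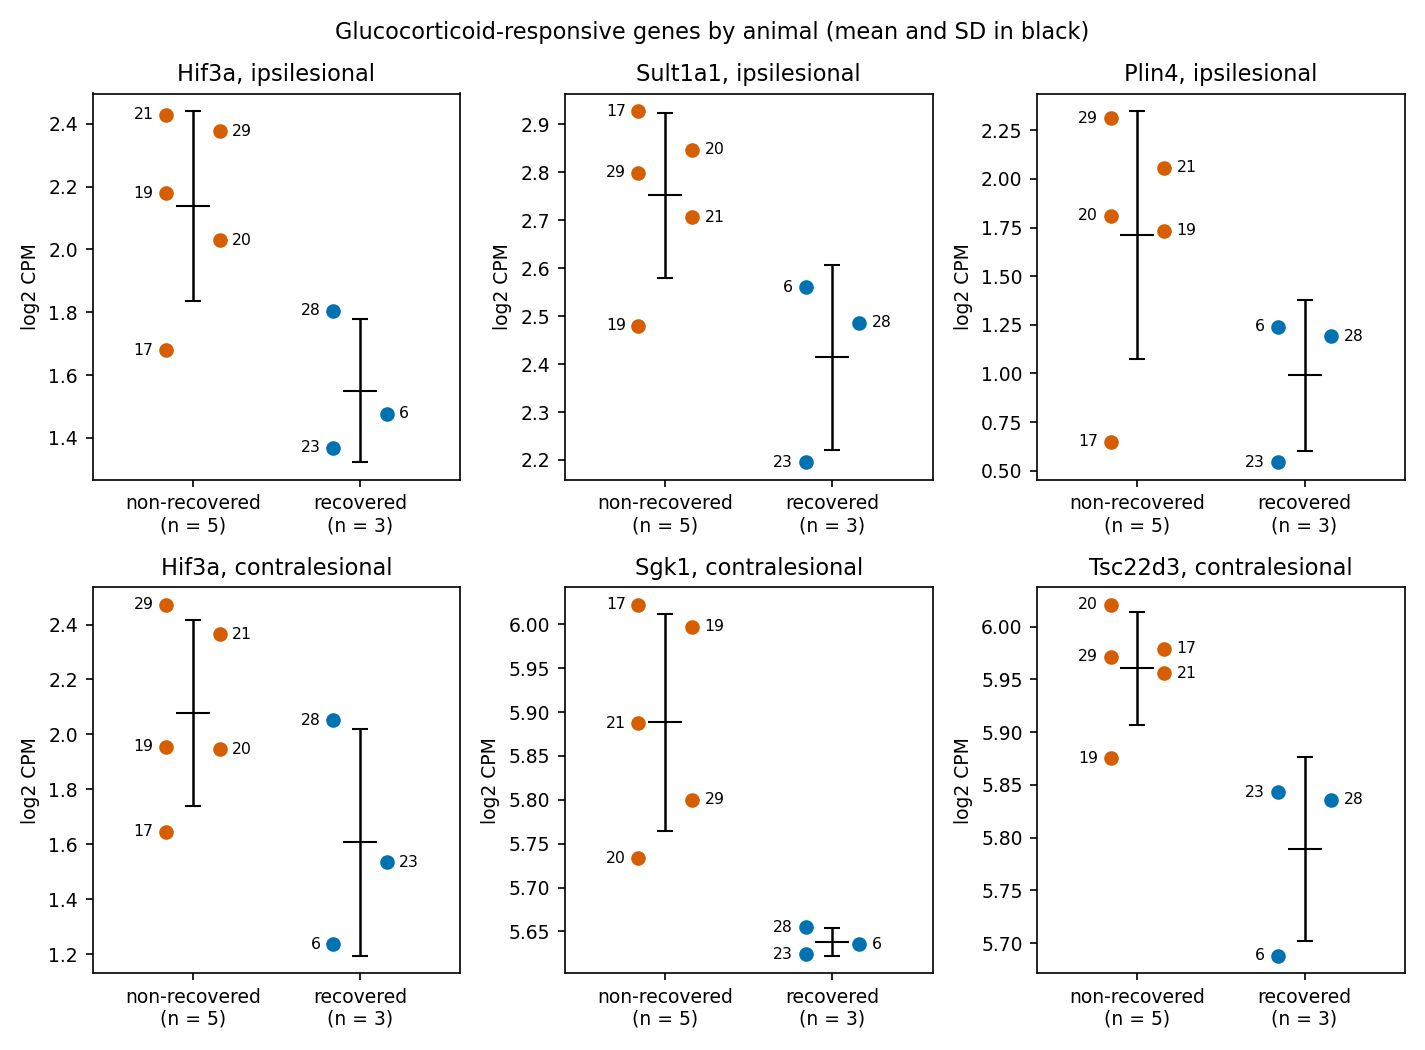
Log2 CPM of each member (vertical axis, a different range in each panel) in non-recovered (orange, n = 5) and recovered (blue, n = 3) animals, with animal numbers beside the points and the group mean and SD in black; the top row is ipsilesional and the bottom row contralesional cortex. The groups are apart for Sgk1 and Tsc22d3, overlap by 1 non-recovered animal for the ipsilesional genes, and overlap by 3 for contralesional Hif3a.

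On the contralesional side Hif3a was again lower on average, with groups that overlapped more. Recovered animals 6, 23 and 28 had 1.24, 1.53 and 2.05 log2 CPM. Non-recovered animals 17, 19, 20, 21 and 29 had 1.65, 1.95, 1.95, 2.36 and 2.47. Recovered animal 28 was above non-recovered animals 17, 19 and 20. The means of 1.61 ± 0.41 (SD, n = 3) and 2.08 ± 0.34 (SD, n = 5) differed by -0.47 ± 0.22 (SE; 95% interval -0.97 to 0.03), with a limma p of 0.0634, an adjusted p of 0.0760 and an exact permutation p of 0.125. Without the library titled animal 6 the difference was -0.28, without that titled animal 23 it was -0.43, and without animal 28 it was -0.69. Without non-recovered animals 17, 19, 20, 21 or 29 in turn it was -0.58, -0.50, -0.50, -0.40 and -0.37. Of these omissions, only those of animals 28 and 17 put it at an unadjusted limma p under 0.05. Between 50 and 150 reads stood behind each value.

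Sgk1 (ENSMUSG00000019970, chr10:21882184-21999903, plus strand) was far better sampled, with 904 to 1811 reads per library. The recovered values were 5.64 in animal 6, 5.62 in 23 and 5.65 in 28, and the non-recovered ones 6.02 in 17, 6.00 in 19, 5.73 in 20, 5.89 in 21 and 5.80 in 29 (log2 CPM). Every recovered library was below every non-recovered one. The recovered libraries had an SD of 0.016, less than the 0.044 that counting reads alone would give on average, so this close agreement among 3 animals is no measure of their true spread. The difference was -0.25 ± 0.08 (SE; 95% interval -0.43 to -0.07), with a limma p of 0.0125, an adjusted p of 0.0554 and an exact permutation p of 0.0357. Leaving out any 1 library kept it between -0.29 and -0.22.

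Tsc22d3 (ENSMUSG00000031431, chrX:140539528-140600659, minus strand) had the smallest difference of the 6. Recovered animals 6, 23 and 28 were at 5.69, 5.84 and 5.84 log2 CPM, and non-recovered animals 17, 19, 20, 21 and 29 at 5.98, 5.87, 6.02, 5.96 and 5.97. The groups did not overlap, but recovered animals 23 and 28 came close to non-recovered animal 19. The exact permutation test gave 0.0179, the smallest p it allows. The difference was -0.17 ± 0.07 (SE; 95% interval -0.32 to -0.02), with a limma p of 0.0298 and an adjusted p of 0.0590. It was -0.12 without animal 6, with a limma p of 0.118, and without animals 17, 20, 21 or 29 in turn the limma p was 0.0533, 0.0701, 0.0503 and 0.0556. With Sgk1, 2 of 3 contralesional members had groups without overlap, where 25.4% of the listed genes were lower in that way.

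The contralesional differences depended on how libraries were scaled, and the ipsilesional ones less so. Centring each library on the median deviation of its listed genes moved the median difference of the contralesional table from -0.19 to -0.08. It moved contralesional Hif3a to -0.36 (limma adjusted p = 0.210), Sgk1 to -0.14 (adjusted p = 0.203) and Tsc22d3 to -0.06 (adjusted p = 0.483). The split of all contralesional genes with an unadjusted limma p under 0.05 moved with it, from 199 lower and 107 higher to 56 lower and 147 higher. In ipsilesional cortex it went from 98 lower and 98 higher to 70 lower and 114 higher, with Hif3a at -0.56, Sult1a1 at -0.31 and Plin4 at -0.69. Listed genes that were lower on the contralesional side had a median exonic length of 6669.5 bases, against 3055 bases for those that were higher. On the ipsilesional side these medians were 5125.5 and 5343 bases. With a trend on exonic length removed from each library, contralesional Hif3a was at -0.32 (limma adjusted p = 0.267), Sgk1 at -0.15 (adjusted p = 0.158) and Tsc22d3 at -0.08 (adjusted p = 0.336). Of these 3 contralesional members, 0 had an unadjusted p under 0.05 under either scaling. The same removal put ipsilesional Hif3a at -0.58, Sult1a1 at -0.26 (limma adjusted p = 0.0782) and Plin4 at -0.70. The sign stayed negative for all 6 members under these scalings. Among all contralesional genes 270 were lower as reported, 270 after centring and 219 after length removal. As the tables hold only selected genes, which scaling is right was not tested.

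**Figure D3:**
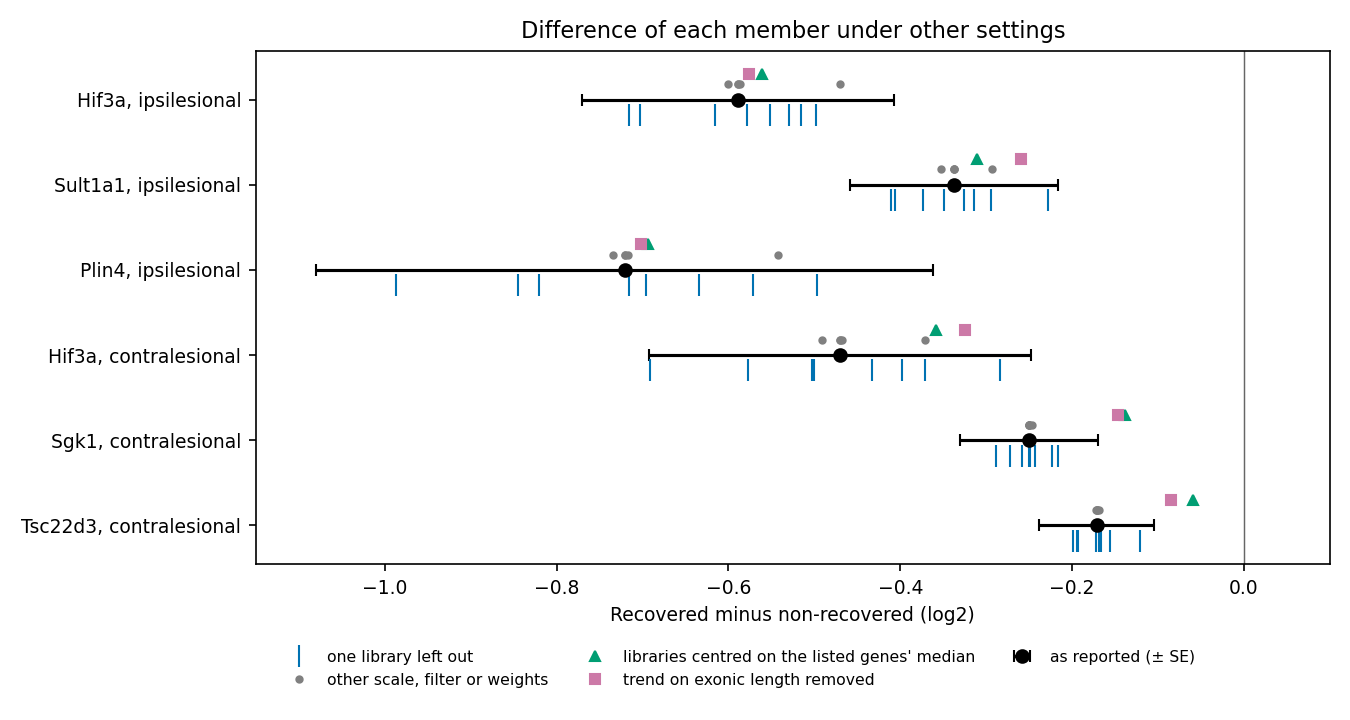
Recovered minus non-recovered difference in log2 units (horizontal axis) of each member (rows): black points with SE as reported, blue ticks with 1 library left out, grey points with another scale, filter or weights, green triangles after centring and pink squares after removing the length trend. No value crosses 0, and the contralesional genes Sgk1 and Tsc22d3 move toward 0 under centring and length removal, to -0.14 and -0.06 under centring.

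Hif3a could be compared between hemispheres through its recovery difference, since a scale shared by a table cancels within it. The ipsilesional minus contralesional difference was -0.12 ± 0.31 (SE; 95% interval -0.79 to 0.55), with a limma p of 0.71 and an adjusted p of 0.931 over the 19 shared genes. That fit treats the libraries of an animal as independent. With the animal as a block the value was the same, and the 95% interval was -0.42 to 0.18 by title and -0.38 to 0.14 by description code. Non-recovered animals 21 and 29 had the highest Hif3a levels in both hemispheres and animal 17 the lowest non-recovered level in both. Recovered animals 6, 23 and 28 held places 2, 1 and 4 from the lowest ipsilesional level. Their contralesional places by title were 1, 2 and 6. Deviations from the group means correlated between hemispheres with Pearson r = 0.88 (permutation within groups, p = 0.0125, adjusted 0.0938) and Spearman rho = 0.76 (permutation p = 0.0556, adjusted 0.417) over 8 animals. Without the 2 animals whose ipsilesional Hif3a deviations lay farthest from their median r was 0.85. With the contralesional libraries of animals 6 and 23 matched by description code r was 0.93 (permutation p = 0.00417, adjusted 0.0556). Over the 19 shared genes, each described by the same r, Hif3a held place 2 under either matching, and the median r was 0.37 by title and 0.49 by code.

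Within the groups the highest correlation between ipsilesional members was that of Hif3a with Plin4, which did not pass adjustment, and differences between correlations were not tested. Hif3a and Plin4 had r = 0.88 (permutation p = 0.0111, adjusted 0.0938) and rho = 0.79 (permutation p = 0.0458, adjusted 0.417). Their r was 0.72 without the 2 animals whose Hif3a deviations lay farthest from the median deviation. Hif3a with Sult1a1 gave r = -0.19 (permutation p = 0.647) and rho = -0.38 (permutation p = 0.411), and Sult1a1 with Plin4 r = -0.04 (permutation p = 0.936) and rho = -0.07 (permutation p = 0.901). With the 2 animals left out whose deviations of the first gene lay farthest from the median deviation, r was 0.25 for Hif3a with Sult1a1. For Sult1a1 with Plin4 it was -0.66. Contralesional Sgk1 gave r = -0.34 with Hif3a (permutation p = 0.436) and r = -0.41 with Tsc22d3 (permutation p = 0.253), with rho = -0.19 (permutation p = 0.672) and -0.38 (permutation p = 0.375). Contralesional Hif3a and Tsc22d3 gave r = 0.36 (permutation p = 0.414) and rho = 0.14 (permutation p = 0.772). Of 15 pairs of members, 6 within and 9 across hemispheres, 0 passed an adjusted p of 0.05 and 2 had an unadjusted permutation p under 0.05. Ipsilesional Sult1a1 with contralesional Tsc22d3 turned on the label conflict, with r = 0.14 by title (permutation p = 0.835) and 0.92 by code (permutation p = 0.0167, adjusted 0.0625).

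**Figure D4:**
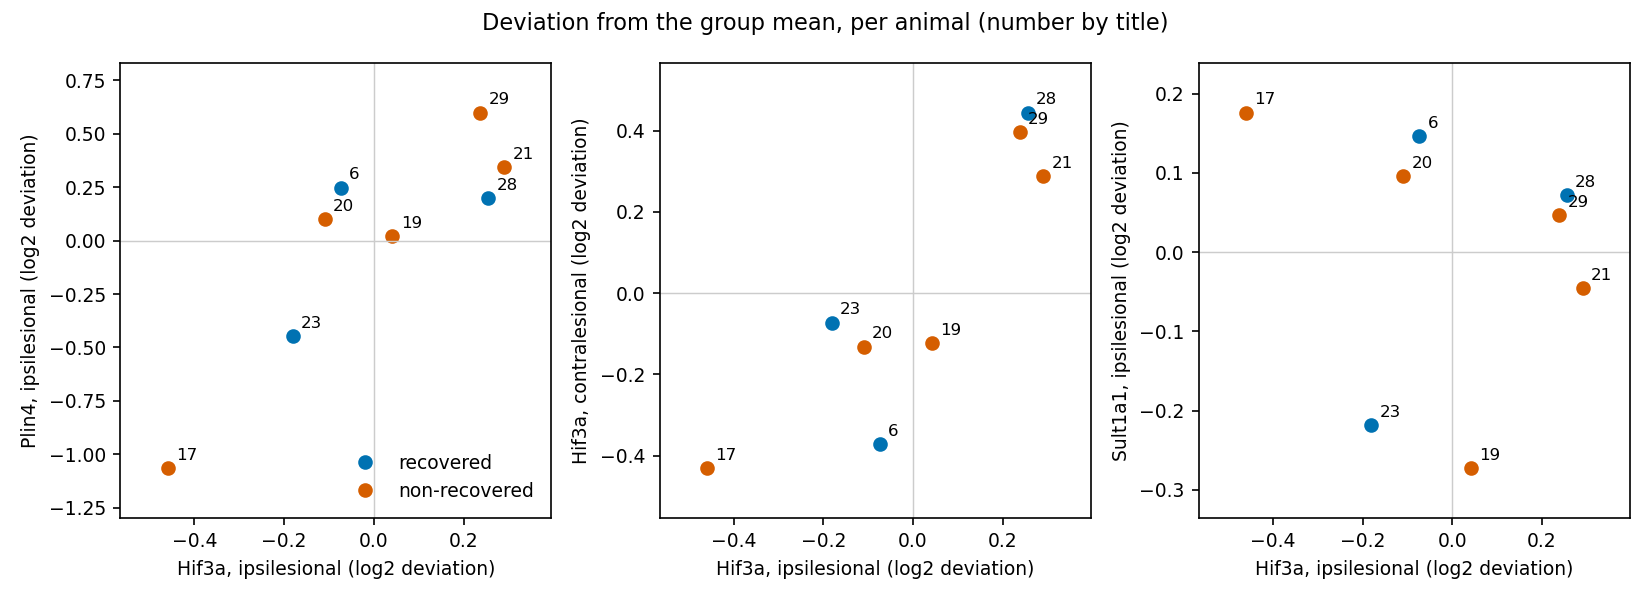
Deviation of each animal from its group mean in log2 units: ipsilesional Hif3a (horizontal axis) against ipsilesional Plin4, contralesional Hif3a and ipsilesional Sult1a1 (vertical axes, left to right), with animals numbered by title, recovered in blue and non-recovered in orange. The first pairs have r = 0.88 each, with animal 17 low in both, and Sult1a1 has r = -0.19.

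The listed genes whose deviations were most like those of each member were found by Pearson's r over the 8 libraries, as a description of 262 other ipsilesional and 416 other contralesional genes. Hif3a came next to Zdhhc14 (r = 0.90), Plin4 (0.88) and Lyve1 (0.86), and Plin4 next to Lyve1 (0.95), Hif3a (0.88) and Zdhhc14 (0.87), so ipsilesional Hif3a and Plin4 shared both other neighbours. Zdhhc14 encodes a palmitoyltransferase and Lyve1 a hyaluronan receptor found on lymphatic endothelium and perivascular macrophages. The recovery difference was -0.23 ± 0.08 (SE) for Zdhhc14 and -0.95 ± 0.22 (SE) for Lyve1. Sult1a1 had other neighbours: Zic1 (r = 0.96), Slc22a6 (0.95) and Slc7a11 (0.93), which encode a transcription factor, an organic anion transporter and a cystine transporter. Contralesional Hif3a was nearest to Trank1 (r = 0.92), Celsr3 (0.90) and Creb3l1 (0.86). Sgk1 was nearest to Setdb2 (0.93), Afap1 (0.77) and P2ry1 (0.73). Without the 2 libraries with the largest Sgk1 deviations from their group means Afap1 had r = 0.48. Tsc22d3 was nearest to Gk5 (0.94), Psmg4 (0.87) and Sfi1 (0.85). Creb3l1, Setdb2 and Psmg4 varied with their member within groups while differing the other way between groups, by 0.42 ± 0.13, 0.33 ± 0.09 and 0.45 ± 0.15 (SE, log2), and none of these passed an adjusted p of 0.05.

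Per kilobase of exonic sequence, the members differed widely in level within a table. On the contralesional side Tsc22d3 had 13.7 ± 1.0 CPM per kb (SD, n = 8), Sgk1 11.4 ± 1.28 and Hif3a 0.564 ± 0.163. Tsc22d3 was above Sgk1 in 8 of 8 libraries (exact sign-flip permutation p = 0.00781, the smallest that 8 libraries allow). That count depends on the lengths used. By CPM without length, Sgk1 was above Tsc22d3 in animals 17 (64.9 against 63.0) and 19 (63.8 against 58.6), and below it in the other libraries. On the ipsilesional side Sult1a1 had 4.09 ± 0.669 CPM per kb, Hif3a 0.570 ± 0.159 and Plin4 0.497 ± 0.216. Hif3a was above Plin4 in 7 of 8 libraries (exact sign-flip permutation p = 0.0391), by 0.0729 ± 0.0921 CPM per kb (SD, n = 8). These levels use the union of annotated exons, not the transcripts in use.

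Around the members, few genes of the wider pathway were listed. Of a list of 51 glucocorticoid-responsive genes, 4 were listed in each table, the 3 members and 1 more. All were lower in recovered cortex, as were 50.2% of all ipsilesional and 64.7% of all contralesional listed genes. The members are part of this count, so it adds only Wipf3 and Anxa1. The list was drawn up with earlier results of these data known and may leave out other responsive genes, so it gives no direction for the pathway. Ipsilesional Wipf3, an actin regulator of the verprolin family, was at 7.15 ± 0.14 log2 CPM in recovered (SD, n = 3) and 7.36 ± 0.12 in non-recovered libraries (SD, n = 5), a difference of -0.21 ± 0.09 (SE) with a limma p of 0.0473 and an adjusted p of 0.0663. Contralesional Anxa1, the annexin through which glucocorticoids restrain leukocytes, was at -0.20 ± 0.40 and 0.42 ± 0.48, a difference of -0.62 ± 0.28 (SE) with an adjusted p of 0.0695, from as few as 10 reads in a library. The median over the 4 genes of a table, 3 of them members, was -0.46 in the ipsilesional and -0.36 in the contralesional table. All 4 were lower in each table, so a median below 0 was given in advance. Over all listed genes, which go both ways, the median size without sign was 0.26 in either table. None of 20 genes of the receptor, its chaperones, steroid handling and the stress axis was listed in either table, so the receptor itself was not analysed here.

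Neighbouring pathways were sparse as well, and 0 of their listed genes passed an adjusted limma p of 0.05. Of 18 clock genes, 3 were listed on the contralesional side and none on the ipsilesional side. Per3, a clock repressor, differed by -0.17 ± 0.08 (SE, log2), Hlf, a clock output factor, by -0.22 ± 0.09, and Ciart, another clock repressor, by -0.28 ± 0.14, with an unadjusted limma p under 0.05 for Hlf alone (0.0444). Of 21 hypoxia genes, Vegfa and Ldha, targets of the factors that Hif3a can restrain, were listed beside Hif3a on the contralesional side and had higher values, by 0.27 ± 0.14 and 0.16 ± 0.08 (SE, log2; adjusted p of 0.0919 and 0.0844). On the ipsilesional side Hif3a was the single listed gene of that list. Of 14 lipid droplet genes, Plin4 was listed on the ipsilesional side and the lipase gene Lipe on the contralesional side, where it was higher by 0.24 ± 0.10 (SE; adjusted p = 0.0626). Of 17 sulfotransferase and drug metabolism genes, 4 were listed, all ipsilesional: beside Sult1a1, Aox3 differed by -1.06 ± 0.28, Fmo1 by -0.39 ± 0.16 and Cyp2s1 by 0.35 ± 0.08 (SE, log2). Sgk1 was the single listed gene of 10 SGK family and transport genes, and Tsc22d3 the single one of 4 TSC22 family genes.

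**Figure D5:**
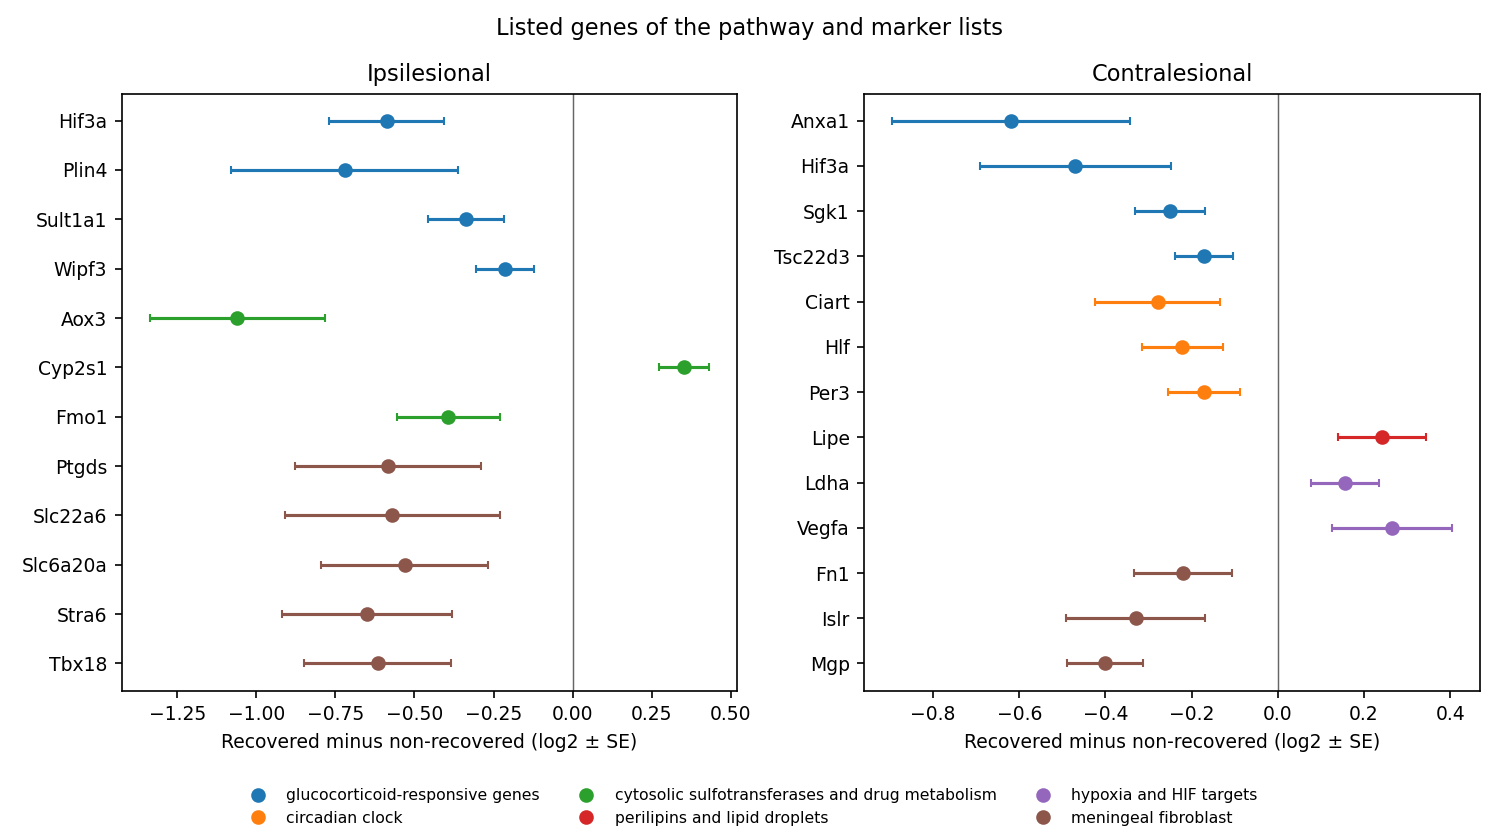
Recovered minus non-recovered difference in log2 units with SE (horizontal axis) of the listed genes of 6 lists (rows, coloured by list), ipsilesional on the left and contralesional on the right. The 4 genes of each table from the glucocorticoid-responsive list lie below 0, as do the meningeal fibroblast markers, and Vegfa, Ldha, Lipe and Cyp2s1 lie above.

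Markers of other cell types were listed as well, and 2 of them, both contralesional, passed the test. Of 17 meningeal fibroblast markers, 5 were listed on the ipsilesional side and 3 on the contralesional side, and all had lower values in recovered cortex, as had 50.2% and 64.7% of all listed genes. The sum was 356 to 649 CPM in recovered and 423 to 880 CPM in non-recovered ipsilesional libraries, and 66.0 to 90.7 against 88.1 to 104 CPM on the contralesional side. Contralesional Mgp, a matrix protein gene, passed the test with -0.40 ± 0.09 (SE, limma adjusted p = 0.0469). One of these markers, Slc22a6, was also a nearest neighbour of Sult1a1. Of 15 striatal projection neuron markers, 10 were listed on the contralesional side, all with lower values, with 210 to 232 CPM in recovered and 254 to 307 CPM in non-recovered libraries, and Gpr6 passed the test (-0.71 ± 0.18, SE, limma adjusted p = 0.0469). On the ipsilesional side 3 of them were listed: Pde10a differed by -0.32 ± 0.13, Lrrc10b by -0.60 ± 0.23 and the abundant Scn4b by 0.27 ± 0.12 (SE, log2), none past an adjusted p of 0.05. Their sum, in which Scn4b weighs most, was 182 to 235 CPM in recovered and 170 to 212 CPM in non-recovered libraries. The ipsilesional table further listed 1 of 13 oligodendrocyte markers (Bmp4, -0.47 ± 0.16), 2 of 7 inhibitory neuron markers (Gad1, 0.22 ± 0.08, and Slc32a1, 0.15 ± 0.06) and 1 of 11 excitatory cortical markers (Calb1, -0.23 ± 0.10), and Sst (0.14 ± 0.07; SE, log2, for each) was the inhibitory marker on the contralesional list, which held no microglia, oligodendrocyte or excitatory marker. No listed marker was at 0 reads in any library. None of 10 astrocyte, 11 endothelial, 9 mural and 10 leukocyte markers was listed in either table, so the glial and vascular share of the tissue, and with 1 of 11 excitatory markers its cortical identity, could not be checked. The part of these cell types in the members' differences was not tested.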

How the data were processed

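RNA was taken from motor cortex with Trizol and RNeasy, at RNA integrity numbers of 7 to 9, and made into stranded TruSeq mRNA libraries, per the labels' protocols. Named without roles, per the submitters' processing notes, are STAR 2.5.1b, Trimmomatic 0.38, edgeR, bcl2fastq and mm10. How reads were counted, whether by strand, on which annotation, and how genes were chosen is not given in the sources used here. The authors deposited log2 CPM values per library, in 1 table per hemisphere. Each value is a whole number of reads, with a prior count of 2 added, scaled to the library total: 100% of values gave whole reads within 0.01. The total may already include a normalization factor. The prior count understates folds of genes with few reads. The members and all gene lists were chosen with earlier results of these data known.

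Within each table the groups were compared with limma 3.58.1 (R 4.3.3), fitted to the deposited log2 CPM without a filter, with Benjamini-Hochberg adjustment over the table and a threshold of 0.05. Exact permutation tests over libraries were 2-sided. Correlations used deviations from group means, with libraries shuffled within groups in 720 ways and adjustment over 15 pairs. The limma fit and the shuffling within groups were also run on simulated data. No genes were selected by their difference there, so those runs do not vouch for p-values in the selected tables. Named genes were the members, every listed gene of 8 pathway and 10 marker lists, and the 3 genes nearest to each member by r. The alternatives were voom weights on the recovered reads, log2(CPM + 1), log2(CPM + 0.1), a mean log2 CPM of at least 1, a mean-variance trend, centring, removal of a length trend, and leaving out each library. Ipsilesional and contralesional libraries of an animal pair by its number, since they come from 1 animal; a block by title and another by description code were run for Hif3a. Exonic lengths and positions came from GENCODE M21 on GRCm38: 263 of 263 and 415 of 417 symbols matched. No per-sample column was left unused. Counting errors cover counting only.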

Additional observations from a re-analysis of the deposited data

Results flagged for a closer look

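In 47 groups of 5 non-recovered libraries, 1 for each named list gene or member in a hemisphere, the highest or lowest library was set against the rest by Dixon's ratio, which flags about 1 in 20 groups by chance at the level used. No member had a library that stood apart. In 6 list genes 1 library did. Ipsilesional animal 19 was low for the drug metabolism gene Aox3, at 0.73 log2 CPM, and for the meningeal marker Ptgds, at 8.65. Ipsilesional animal 21 was high for Gpnmb, a macrophage gene, at 3.19. Contralesional animal 29 was low for the meningeal marker Islr, at 3.43, and high for Vegfa, at 5.46. Contralesional animal 21 was low for the striatal marker Rasd2, at 6.66.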

How the results depend on the processing

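The sign of the 6 member differences held under every alternative run, which does not set them apart from other listed genes. Aside from the filter on mean log2 CPM, ipsilesional genes stayed at 132 lower and 131 higher, except 138 and 125 without animal 6. Contralesional ones stayed at 270 and 147, except 219 and 196 after removal of the length trend. Calls at an adjusted limma p of 0.05 did not hold. Centring put ipsilesional Hif3a past it (-0.56, adjusted p = 0.0495), which makes 1 ipsilesional member. A mean-variance trend put Hif3a (-0.59) and Sult1a1 (-0.34) past it, both at 0.0488, which makes 2. On the contralesional side centring and removal of the length trend each left 0 of 3 members at an unadjusted limma p under 0.05, and 0 stayed called after adjustment under all alternatives. Leaving out 1 library gave 1 to 3 members at an unadjusted p under 0.05 and 0 at an adjusted one in either hemisphere. Of all listed genes, 53 to 91 of 263 ipsilesional and 108 to 176 of 417 contralesional ones were then lower at the unadjusted p. At the adjusted p it was 0 to 14 and 0 to 54. The differences then ran from -0.72 to -0.50 for ipsilesional Hif3a, -0.41 to -0.23 for Sult1a1, -0.99 to -0.50 for Plin4, -0.69 to -0.28 for contralesional Hif3a, -0.29 to -0.22 for Sgk1 and -0.20 to -0.12 for Tsc22d3. The number of all listed genes called lower after adjustment moved far more: 3 ipsilesional genes became 29 with centring, 96 with the trend and 0 with voom, and 25 contralesional genes became 2 with log2(CPM + 1), 0 with the trend or voom, 0 without animal 17 and 54 without animal 29. The cause was not tested.

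With the animal as a replicate block the Hif3a difference between hemispheres stayed at -0.12, with an SE of 0.14 by title (adjusted p = 0.911) and 0.12 by code (adjusted p = 0.910), and the block changed no call; leaving out 1 animal gave -0.27 to -0.02. Correlations that changed sign were all between -0.32 and 0.14 as reported. Without the 2 farthest libraries ipsilesional Hif3a gave 0.25 with Sult1a1, 0.14 with Sgk1 and 0.036 with Tsc22d3, Sult1a1 gave 0.35 with Sgk1 and -0.19 with Tsc22d3, and Plin4 gave 0.17 with Tsc22d3. In the same setting Sult1a1 moved from -0.04 to -0.66 with Plin4 and from -0.14 to -0.79 with contralesional Hif3a. Matching by description code gave 0.079 for Hif3a with Tsc22d3, 0.14 for Sult1a1 with contralesional Hif3a and 0.25 for Plin4 with Tsc22d3, and Spearman's rho was 0.048 for Sult1a1 with Sgk1. With 33 to 150 reads per value, counting error is larger for Plin4 and for Hif3a in either hemisphere than for Sgk1 and Tsc22d3.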
